A study of Homo sapiens with 16 samples.

Results

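The 10 genes described here encode proteins that liver cells secrete into blood, and they were read in cultures that had been differentiated toward heart muscle. They are AFP, ALB, TTR, SERPINA1, APOA1, APOA2, APOB, FGA, FGB and FGG, chosen by name as hepatic endoderm-like genes from the 43388 genes listed. All 10 passed the filter on low values that 16122 genes passed, a mean of at least 1 TPM. RNA was sequenced from hPSC-CMs, cardiomyocytes made from human pluripotent stem cells, of WTC11, an established wild-type induced pluripotent stem cell line, differentiated by the GiWi protocol, in which a Wnt pathway activator is followed by a Wnt inhibitor. The 16 libraries were 4 groups of 4 wells from a single differentiation: cells collected on Day 16 in standard RPMI/B27, and cells kept from Day 16 to Day 30 in standard RPMI/B27, in RPMI_glcM/B27, the same medium with 5 mM glucose, or in HPLM/B27, a human plasma-like medium. The B27 supplement was present in every group. As wells of 1 line and 1 differentiation, the replicates carry no spread between lines or between differentiations. The design text states 3 wells per medium, while the labels give 4 libraries in each group, and 4 were used.

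In the embryo the liver buds from foregut endoderm next to the developing heart, and signals from cardiac mesoderm take part in its induction. Hepatoblasts first make alpha-fetoprotein, the main plasma protein of the fetus, and albumin takes its place as the cells mature. The yolk sac endoderm transcribes most of these genes as well, so their RNA does not separate liver from yolk sac. Factors of the HNF4, FOXA and C/EBP families bind the promoters and enhancers of many of them.

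Values are TPM, reads per gene divided by gene length and scaled to a total of 1000000 in each library, so levels of different genes can be set side by side. Whole reads recovered from the TPM came to between 7744768 and 16183655 per library, and 1 read on a gene of 1 kb was worth 0.139 to 0.314 TPM. Over the 16 libraries, 24039 reads fell on AFP, 16963 on ALB and 11189 on APOB, against 568 on FGG and 336 on TTR, whose lowest library held 3 reads. RNR1, a ribosomal RNA, ranged from 49.5 to 29276 TPM and stood highest in replicates 3 and 4 of Day 30 RPMI/B27. Cardiomyocyte genes dominated every group: the summed level of 7 markers (TNNT2, MYH6, MYH7, MYL7, ACTN2, RYR2 and NKX2-5) lay between 10739 and 14725 TPM in all libraries, and that of the 10 hepatic genes between 71.6 and 839 TPM. In bulk RNA, fewer cells of a type and less RNA per cell cannot be told apart.

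ALB and AFP are neighbours of 1 gene family. In RefSeq (GRCh38.p14) ALB lies on the plus strand at chr4:73404287-73421482 and AFP on the same strand at chr4:73436221-73456174, 14738 bases further on. The fibrinogen genes form a second cluster on that chromosome, with FGB at chr4:154562980-154572807 on the plus strand, and FGA (chr4:154583126-154590742) and FGG (chr4:154604136-154612656) on the minus strand. The other 5 genes lie on 5 other chromosomes, APOA2 at chr1:161222292-161223628, APOB at chr2:21001429-21044073, APOA1 at chr11:116835751-116837622, SERPINA1 at chr14:94376747-94390635 and TTR at chr18:31591877-31598821.

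RefSeq promoter entries of 300 bases, 250 before and 50 after a start site, matched 7 of the 10 genes. The 60 bases just before the start site are shown for ALB and AFP, the neighbouring genes of 1 family that moved in opposite directions. The letters of the core promoter's TATA box were searched on both strands (TATAAA or TTTATA) and are in capitals where found.
ALB, chr4:73404227-73404286, plus strand: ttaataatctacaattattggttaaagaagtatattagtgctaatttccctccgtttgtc
AFP, chr4:73436161-73436220, plus strand: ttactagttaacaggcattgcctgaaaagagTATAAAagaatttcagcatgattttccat
AFP held the letters 29 bases before its start site and was the 1 of the 7 genes with a match, while 13.99% of the 27305 genes with an entry hold one. The match is a description of sequence, and its absence says only that these letters are not in the window.

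AFP was the most abundant of the 10 genes on Day 16. Its levels in replicates 1 to 4 read 547, 308, 392.1 and 515 TPM on Day 16, 160, 177, 113 and 103 TPM on Day 30 in RPMI/B27, 73.9, 50.9, 32.4 and 62.7 TPM in RPMI_glcM/B27, and 27.4, 85.1, 70.8 and 44.8 TPM in HPLM/B27. Every Day 30 library lay under every Day 16 library, and every library in RPMI_glcM/B27 or HPLM/B27 lay under those in RPMI/B27. Against Day 16 the mean was 3.18-fold lower in RPMI/B27, 8.02-fold lower in RPMI_glcM/B27 and 7.73-fold lower in HPLM/B27. On the log2(TPM + 1) scale these were changes of -1.66 ± 0.32 (SE; adjusted p = 0.00247, limma), -3.01 ± 0.32 (adjusted p = 1.09e-05) and -3.02 ± 0.32 (adjusted p = 1.06e-05).

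ALB, the main plasma protein after birth, ran the other way with time. It stood at 30.8, 13.98, 19.3 and 20.7 TPM on Day 16, at 311, 313, 180 and 163 TPM on Day 30 in RPMI/B27, at 99.4, 59.9, 42.4 and 111 TPM in RPMI_glcM/B27, and at 19.8, 77.6, 58.3 and 43.7 TPM in HPLM/B27. The libraries in RPMI/B27 and RPMI_glcM/B27 all lay above Day 16, while replicate 1 in HPLM/B27 fell within the Day 16 range. The mean rose 11.4-fold in RPMI/B27, by 3.44 ± 0.38 on the log2 scale (adjusted p = 3.69e-05, limma), and 3.68-fold in RPMI_glcM/B27, by 1.78 ± 0.38 (adjusted p = 0.00362). In HPLM/B27 it was 2.35-fold higher, with a log2 change of 1.09 ± 0.38 and an adjusted p of 0.0465. That call in HPLM/B27 was lost without any of Day 16 replicates 2, 3 and 4 or HPLM/B27 replicates 2, 3 and 4, where the log2 change was 0.83 to 1.10 and the adjusted p 0.0689 to 0.130. It was also lost with all 31047 genes above 0 tested (adjusted p = 0.0887), where 1.61% of them were called higher, and with the replicate block (0.0593).

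**Figure D1:**
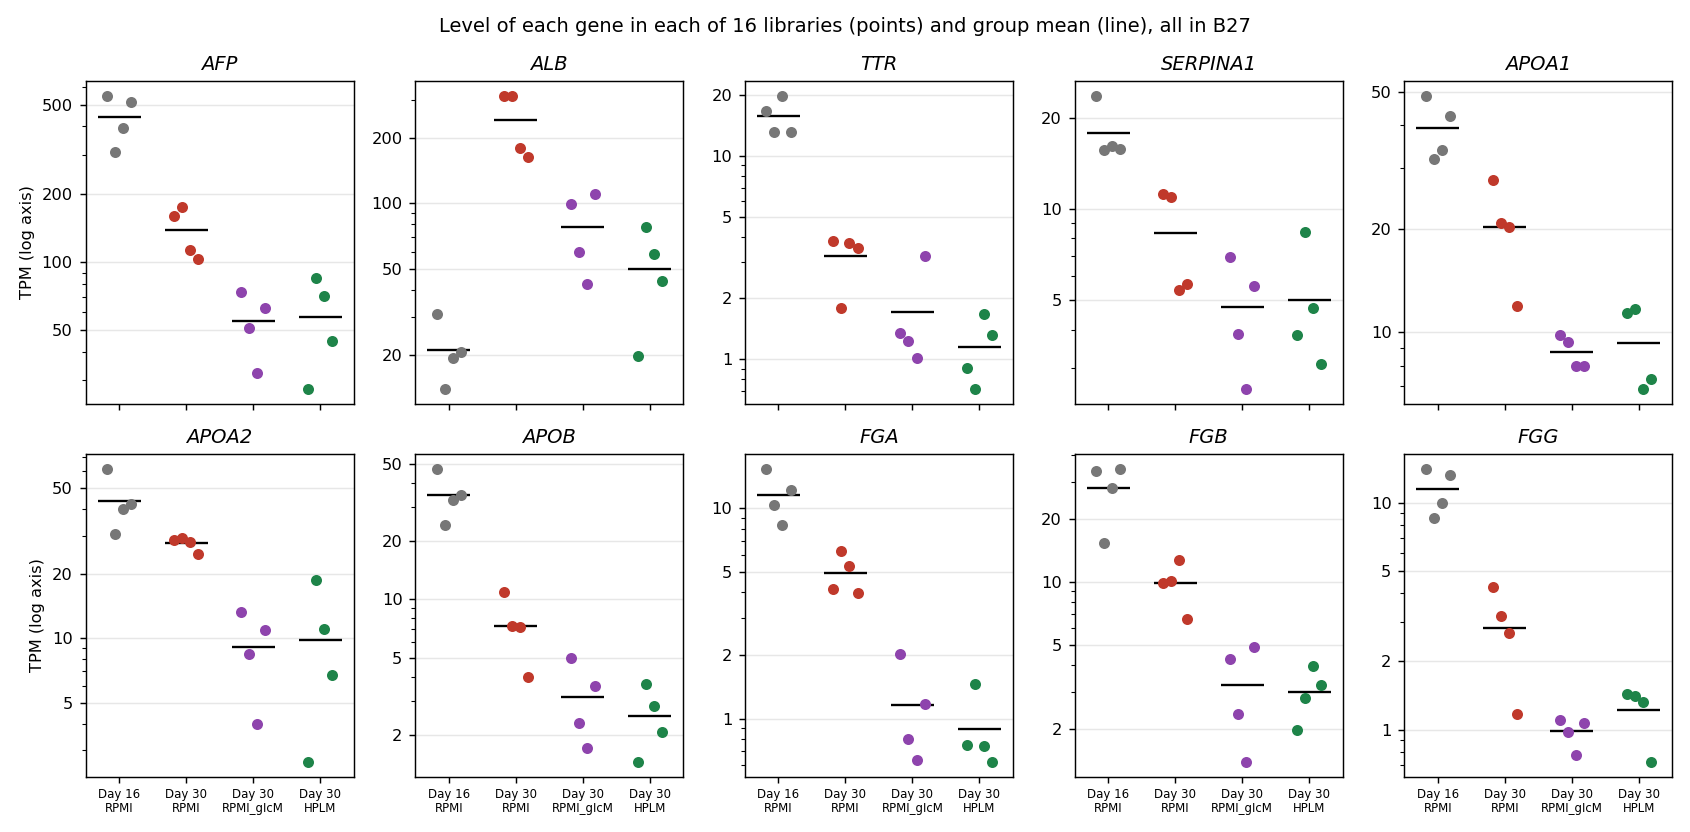
TPM on a log axis of each gene in each library, as points for replicates 1 to 4 from left to right, with the group mean as a line. ALB is lowest on Day 16, at 13.98 to 30.8 TPM, and the other 9 genes are highest there.

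The ratio of ALB to AFP, read within a library, was 0.0402 to 0.0563 on Day 16, 1.58 to 1.94 on Day 30 in RPMI/B27, 1.18 to 1.76 in RPMI_glcM/B27 and 0.722 to 0.976 in HPLM/B27. Day 16 libraries thus held 17.8 to 24.8 times as much AFP as ALB per length, and all 8 libraries in RPMI/B27 and RPMI_glcM/B27 held more ALB than AFP. The 4 HPLM/B27 libraries held slightly less ALB than AFP and lay under the lowest RPMI_glcM/B27 library, while RPMI_glcM/B27 and RPMI/B27 overlapped. The ratio is given as a description, without a test. Between the HPLM/B27 libraries ALB spanned 3.92-fold and AFP 3.10-fold, while the ratio kept within the range just given. In RPMI/B27 the ratio was 1.94 and 1.77 in replicates 1 and 2, and 1.59 and 1.58 in replicates 3 and 4, those richest in RNR1.

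**Figure D2:**
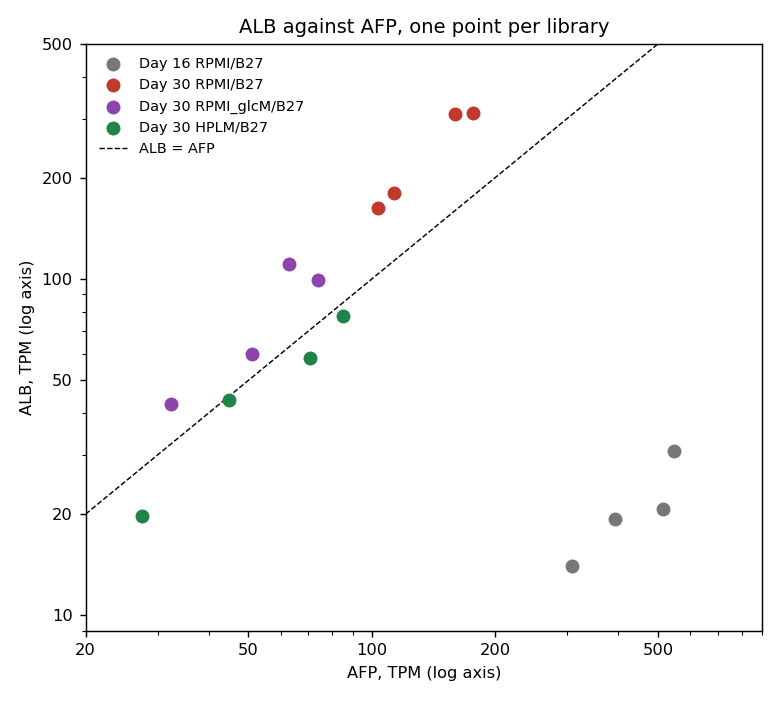
ALB against AFP in TPM, both on log axes, 1 point per library, with the dashed line where both are equal. Day 16 libraries sit far below the line, those in RPMI/B27 and RPMI_glcM/B27 above it, and those in HPLM/B27 just below it, at ratios of 0.722 to 0.976.

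TTR carries thyroid hormone and the retinol-binding protein in plasma. Its levels were 16.6, 13.2, 19.8 and 13.2 TPM on Day 16, 3.81, 1.79, 3.74 and 3.55 TPM on Day 30 in RPMI/B27, 1.35, 1.23, 1.02 and 3.23 TPM in RPMI_glcM/B27, and 0.902, 0.715, 1.67 and 1.32 TPM in HPLM/B27. All 12 Day 30 libraries lay under the lowest Day 16 library. The mean fell 4.87-fold, 9.19-fold and 13.6-fold from Day 16 in the order of media just given, with log2 changes of -1.997 ± 0.25, -2.67 ± 0.25 and -2.96 ± 0.25 (adjusted p = 9.06e-05, 2.86e-06 and 1.09e-06, limma). The Day 30 values rest on 3 to 25 reads per library.

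SERPINA1 encodes alpha-1-antitrypsin, the main inhibitor of neutrophil elastase in plasma. It was read at 23.7, 15.7, 16.2 and 15.8 TPM on Day 16, 11.3, 10.96, 5.42 and 5.65 TPM in RPMI/B27, 6.95, 3.88, 2.55 and 5.57 TPM in RPMI_glcM/B27, and 3.83, 8.39, 4.72 and 3.07 TPM in HPLM/B27. Day 16 stood above all Day 30 libraries, and the Day 30 groups overlapped. The fall from Day 16 was 3.77-fold in RPMI_glcM/B27 (log2 change -1.76 ± 0.30, adjusted p = 0.000578, limma) and 3.57-fold in HPLM/B27 (-1.70 ± 0.30, adjusted p = 0.000761). In RPMI/B27 the mean was 2.14-fold lower (-1.06 ± 0.30, adjusted p = 0.0214), a call that was lost without Day 16 replicate 1 (adjusted p = 0.0713) or without RPMI/B27 replicate 3 (0.0674) or 4 (0.0777). It was also lost after median-of-ratios rescaling (-0.76, adjusted p = 0.0533), with RNR1 as a covariate (-0.59, 0.236) and with both libraries richest in RNR1 left out (-0.62, 0.286). A further row named SERPINA1_1, which the sources used here do not explain, held 4 to 54 reads per library, 7.69% to 27.96% of those on SERPINA1, so reads of the gene may be split between both rows. That row fell from Day 16 in RPMI_glcM/B27 (-1.34 ± 0.23, adjusted p = 0.000637) and HPLM/B27 (-1.11 ± 0.23, adjusted p = 0.00268), and was at -0.64 ± 0.23 in RPMI/B27 (adjusted p = 0.0607).

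The apolipoproteins differed in how much they fell in RPMI/B27. APOB, the structural protein of very low and low density lipoproteins, was read at 47.2, 24.1, 32.7 and 34.7 TPM on Day 16, 10.9, 7.31, 7.18 and 3.98 TPM in RPMI/B27, 4.99, 2.30, 1.71 and 3.56 TPM in RPMI_glcM/B27, and 1.45, 3.67, 2.83 and 2.06 TPM in HPLM/B27. All Day 30 libraries lay under Day 16. It fell 4.73-fold, 11.04-fold and 13.9-fold, with log2 changes of -2.13 ± 0.29, -3.13 ± 0.29 and -3.35 ± 0.29 (adjusted p = 0.000212, 3.17e-06 and 1.70e-06, limma).

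APOA1, the main protein of high density lipoprotein, was read at 48.7, 31.8, 33.9 and 42.6 TPM on Day 16, 27.8, 20.8, 20.2 and 11.9 TPM in RPMI/B27, 9.81, 9.40, 7.96 and 7.96 TPM in RPMI_glcM/B27, and 11.4, 11.7, 6.84 and 7.33 TPM in HPLM/B27. The Day 16 and RPMI/B27 groups did not overlap, nor did RPMI/B27 and either of RPMI_glcM/B27 and HPLM/B27. The mean fell 1.94-fold in RPMI/B27 (-0.96 ± 0.22, adjusted p = 0.00783, limma), 4.47-fold in RPMI_glcM/B27 (-2.03 ± 0.22, adjusted p = 1.57e-05) and 4.21-fold in HPLM/B27 (-1.98 ± 0.22, adjusted p = 1.98e-05). The call in RPMI/B27 held in 5 of 7 other settings, with log2 changes of -0.997 to -0.639. With both libraries richest in RNR1 left out, the fall in RPMI/B27 was -0.66 and its adjusted p 0.0800.

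APOA2, the second protein of high density lipoprotein, was read at 61.6, 30.5, 40.0 and 42.1 TPM on Day 16 and at 28.7, 29.2, 28.2 and 24.7 TPM in RPMI/B27, where the libraries were closest together. It was 1.57-fold lower there, a log2 change of -0.59 ± 0.40 with a 95% interval of -1.44 to 0.26, and was the 1 gene of the 10 that did not pass the test against Day 16 (adjusted p = 0.296, limma). In RPMI_glcM/B27 its levels were 13.2, 8.42, 3.98 and 10.9 TPM and in HPLM/B27 2.65, 18.7, 11.05 and 6.72 TPM, a 7.05-fold span in HPLM/B27 that was the widest of any gene of the 10 in any group. It fell 4.76-fold and 4.46-fold in these media (-2.19 ± 0.40 and -2.26 ± 0.40, adjusted p = 0.00110 and 0.000892). Its levels there rest on 6 to 25 reads per library in RPMI_glcM/B27 and 6 to 40 in HPLM/B27. The ratio of APOA1 to APOB was 1.03 to 1.32 on Day 16 and 2.56 to 3.00 on Day 30 in RPMI/B27, without overlap. It was 1.97 to 4.64 in RPMI_glcM/B27 and 2.42 to 7.85 in HPLM/B27, also above Day 16 in every library.

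FGA, FGB and FGG encode the alpha, beta and gamma chains of fibrinogen, the clotting protein, which is built from equal numbers of each. FGB was read at 33.7, 15.3, 27.9 and 34.6 TPM on Day 16, 9.91, 10.1, 12.7 and 6.66 TPM in RPMI/B27, 4.29, 2.36, 1.39 and 4.89 TPM in RPMI_glcM/B27, and 1.96, 2.81, 3.96 and 3.24 TPM in HPLM/B27. FGA stood at 15.4, 10.3, 8.36 and 12.3 TPM on Day 16, 4.15, 6.23, 5.29 and 3.95 TPM in RPMI/B27, 2.04, 0.796, 0.638 and 1.18 TPM in RPMI_glcM/B27, and 0.744, 1.46, 0.738 and 0.622 TPM in HPLM/B27. For FGG they were 14.2, 8.56, 9.96 and 13.3 TPM on Day 16, 4.27, 3.17, 2.66 and 1.17 TPM in RPMI/B27, 1.11, 0.978, 0.771 and 1.07 TPM in RPMI_glcM/B27, and 1.44, 1.41, 1.33 and 0.720 TPM in HPLM/B27. FGB was the highest chain in all 16 libraries, with 1.48 to 5.36 times the TPM of FGA and 1.37 to 5.71 times that of FGG, and each chain was lower in all Day 30 libraries than in any Day 16 library.

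From Day 16 to Day 30 in RPMI/B27, FGA fell 2.36-fold (-1.08 ± 0.22, adjusted p = 0.00407, limma), FGB 2.84-fold (-1.38 ± 0.30, adjusted p = 0.00482) and FGG 4.09-fold (-1.76 ± 0.24, adjusted p = 0.000186). In RPMI_glcM/B27 the falls were 9.98-fold, 8.63-fold and 11.7-fold, and in HPLM/B27 13.01-fold, 9.32-fold and 9.40-fold, in the same order, with log2 changes between -2.48 and -2.81 and adjusted p-values between 9.63e-07 and 1.08e-05. Day 30 levels of FGA and FGG in RPMI_glcM/B27 and HPLM/B27 rest on 5 to 32 reads per library.

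**Figure D3:**
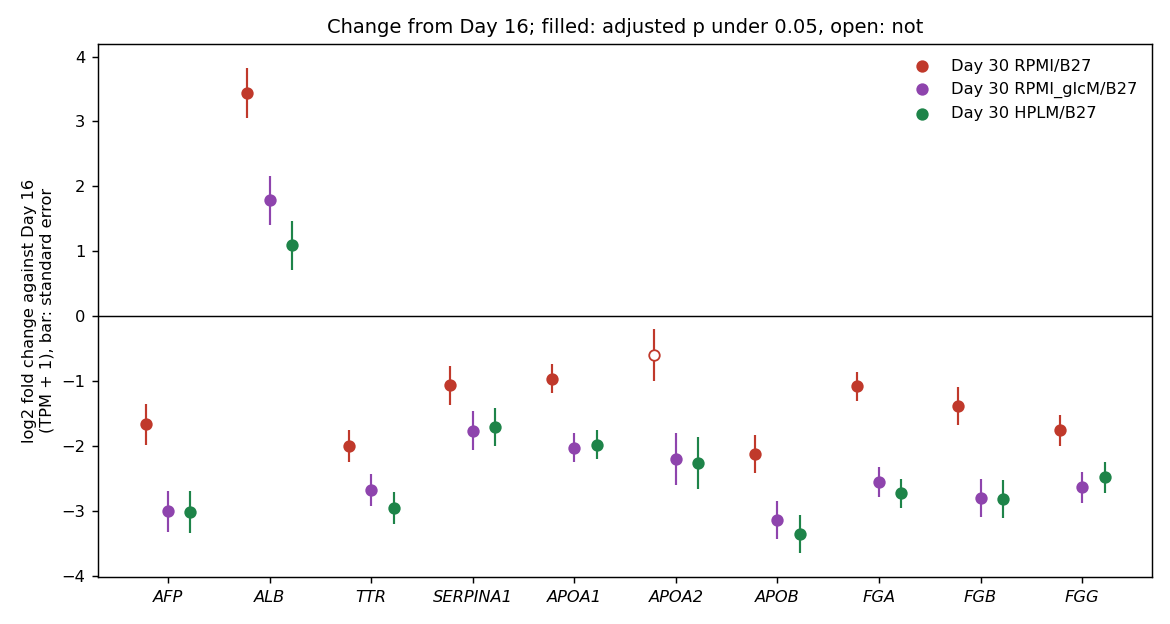
Log2 fold change of TPM + 1 from Day 16 to Day 30 for each gene and medium, with the standard error as a bar. ALB is the 1 gene above 0 in all 3 media (3.44, 1.78 and 1.09), and the open point is APOA2 in RPMI/B27, the 1 change that did not pass the test.

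Counted together, 1 gene rose (ALB) and 8 fell in RPMI/B27 against Day 16, where 2.08% of the 16122 genes tested were called higher and 17.8% lower. In RPMI_glcM/B27, 1 rose and 9 fell, against 3.34% and 17.8% of all genes, and in HPLM/B27, 1 rose and 9 fell, against 3.00% and 22.4%. The median log2 change of the 10 genes was -1.23, -2.59 and -2.60 in the 3 media, and that of all genes tested -0.28, -0.22 and -0.29. After median-of-ratios rescaling, which removes that general shift, all genes tested split into 1389 higher and 1437 lower in RPMI/B27, 2156 and 2282 in RPMI_glcM/B27, and 2074 and 2012 in HPLM/B27, in place of 336 and 2867, 538 and 2862, and 483 and 3605, and the 10 genes into 1 higher and 7, 9 and 9 lower. With both libraries richest in RNR1 left out, 1 gene rose and 6 fell in RPMI/B27, where 4.33% and 5.33% of all genes were then called, and the shares called lower against Day 16 became 29.0% for RPMI_glcM/B27 and 36.2% for HPLM/B27, with 9 of the 10 genes lower in each. These 3 comparisons share the Day 16 libraries.

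Among the Day 30 media, the mean level of each of the 10 genes was lower in both RPMI_glcM/B27 and HPLM/B27 than in the standard medium. In RPMI_glcM/B27, which differs from RPMI/B27 in glucose, the genes that passed the test were AFP (2.52-fold lower, adjusted p = 0.0367), ALB (3.10-fold, adjusted p = 0.0324), APOA1 (2.30-fold, adjusted p = 0.0193), APOA2 (3.03-fold, adjusted p = 0.0485), FGA (4.22-fold, adjusted p = 0.00245) and FGB (3.04-fold, adjusted p = 0.0192, all limma). The call of APOA2 held in 3 of 7 other settings and was lost without any 1 of the 8 libraries (adjusted p up to 0.145). In the 8 fits with 1 library left out, the call of AFP held in 2, those of ALB and APOA1 in 4, and that of FGB in 5. The other genes were at log2 changes of -1.01 (APOB), -0.88 (FGG), -0.70 (SERPINA1) and -0.67 (TTR), with adjusted p-values of 0.0645 to 0.273. Of the 16122 genes tested, 0.837% were called lower in this comparison. The levels of AFP, ALB, APOA1, APOA2, FGA, FGB and FGG did not overlap between both groups, and the share of all genes without overlap was not counted.

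That count of 6 genes changed when single libraries were left out, as did the share of all genes. It was 3, 3 and 2 without RPMI/B27 replicate 1, 2 or 3, where 0.564%, 0.552% and 0.657% of all genes were called lower. Without RPMI_glcM/B27 replicate 2, 3 or 4 it was 1, 1 and 3, against 0.372%, 0.385% and 0.397% of all genes. FGA passed in every case. Leaving out RPMI/B27 replicates 3 and 4 together gave 8 of the 10 genes lower, but 9.31% of all genes were then called lower, and the median of all genes moved from 0.05 to -0.21. RNR1 moved with this comparison, at 14387 and 29276 TPM in those libraries and 225 to 6806 TPM in RPMI_glcM/B27. With RNR1 as a covariate 8 of the 10 genes were called, where 2.52% of all genes were called lower in place of 0.837%.

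HPLM/B27 against RPMI/B27 gave 7 genes lower, where 0.893% of all genes were. ALB was 4.85-fold lower (log2 change -2.35 ± 0.38, adjusted p = 0.00332, limma), FGA 5.51-fold (-1.65 ± 0.22, adjusted p = 0.000800), FGB 3.28-fold (-1.43 ± 0.30, adjusted p = 0.0154), APOB 2.93-fold (-1.23 ± 0.29, adjusted p = 0.0351), APOA2 2.84-fold (-1.66 ± 0.40, adjusted p = 0.0381), AFP 2.43-fold (-1.35 ± 0.32, adjusted p = 0.0337) and APOA1 2.16-fold (-1.02 ± 0.22, adjusted p = 0.0231). TTR was at -0.96 (adjusted p = 0.0501), FGG at -0.72 (0.133) and SERPINA1 at -0.64 (0.318). The count was 3, 4 and 3 without HPLM/B27 replicate 1, 3 or 4, where 0.502%, 0.409% and 0.453% of all genes were called lower. It was 3 and 4 without RPMI/B27 replicate 1 or 2, against 0.558% and 0.527% of all genes. ALB and FGA passed each time. In the 8 fits with 1 library left out, the call of FGB held in 7, those of AFP and APOA1 in 4, that of APOB in 2 and that of APOA2 in 1. With both libraries richest in RNR1 left out the count was 9, against 19.4% of all genes.

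In both comparisons all 10 fold changes were below 0, with medians of -1.20 and -1.29 on the log2 scale against 0.05 and -0.02 for all genes tested. They share the RPMI/B27 libraries. After median-of-ratios rescaling, 8 and 9 genes were lower, and all genes tested split into 995 higher and 950 lower for RPMI_glcM/B27, in place of 219 and 135, and into 1137 and 946 for HPLM/B27, in place of 244 and 144.

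HPLM/B27 and RPMI_glcM/B27 are matched in glucose. None of the 10 genes passed the test between them in limma, with 0 of 10 at an unadjusted p under 0.05 and 0 in limma-voom on recovered reads; 0.0682% of all genes were called in either direction. ALB had the largest difference, -0.69 on the log2 scale with a 95% interval of -1.50 to 0.12, and AFP was at -0.01 (-0.68 to 0.67). For APOA1 the interval was -0.42 to 0.52 and for FGB -0.64 to 0.61. The widest, for APOA2, was -0.91 to 0.79. All 10 genes overlapped between both groups.

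The order of the genes by mean level changed with time. On Day 16 AFP (441 ± 111 TPM, SD, n = 4) was followed by APOA2 (43.6 ± 13.1), APOA1 (39.2 ± 7.84), APOB (34.7 ± 9.54) and FGB (27.9 ± 8.90), with ALB in rank 6 (21.2 ± 7.02), then SERPINA1, TTR, FGA and FGG. Only AFP stood clear of its neighbour; every further neighbour in this order overlapped. On Day 30 ALB led in RPMI/B27 (242 ± 81.2 TPM) and RPMI_glcM/B27 (78.1 ± 32.2 TPM), overlapping with AFP, and AFP led in HPLM/B27 (57.0 ± 25.8 TPM), overlapping with ALB. APOA2 and APOA1 took ranks 3 and 4 in each Day 30 group and 2 and 3 on Day 16. Of the summed TPM of the 10 genes, ALB made up 3.16% ± 0.38 on Day 16, 51.4% ± 3.33 on Day 30 with standard medium, 46.4% ± 4.11 with RPMI_glcM/B27 and 34.7% ± 4.82 with HPLM/B27. Without ALB the sum was 643 ± 155, 223 ± 49.1, 87.9 ± 28.2 and 89.9 ± 36.5 TPM.

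Within a group the genes tended to be high or low in the same wells. On Day 16, replicate 1 was highest for 8 of the 10 genes and replicate 2 lowest for 9. RPMI/B27 replicate 4 was lowest for 8, RPMI_glcM/B27 replicate 3 was lowest for all 10 and replicate 1 highest for 7, and HPLM/B27 replicate 2 was highest for 7. The SD within groups on the log2 scale was 0.32 (FGA) to 0.65 (APOA2), above the median of 0.27 over the genes tested for each of the 10. RNR1 was 29276 TPM in RPMI/B27 replicate 4 and 4872 TPM in RPMI_glcM/B27 replicate 3. RPMI_glcM/B27 replicate 4, with 6806 TPM, was highest for 3 genes, and Day 16 replicate 2 had the lowest RNR1 of all, 49.5 TPM. HPLM/B27 replicates 1 and 4, with 6359 and 5889 TPM, were each below the group mean for 8 of the 10 genes. HPLM/B27 replicates 2 and 3, with 138 and 203 TPM, were each below it for 2. The part of RNR1 in these differences was not tested.

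**Figure D4:**
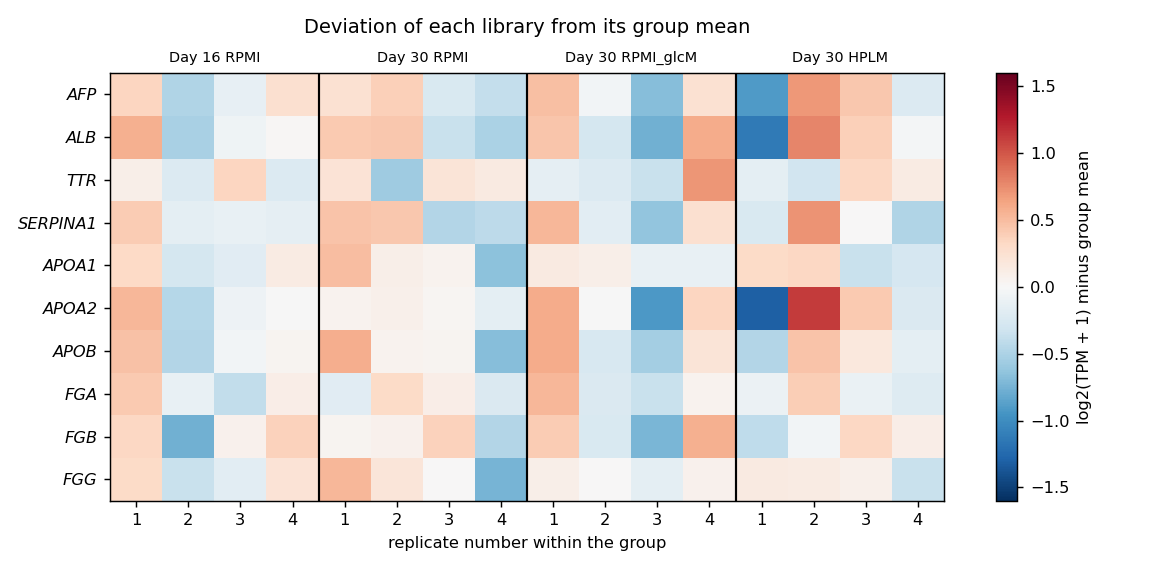
Deviation of each library from its group mean in log2(TPM + 1), genes in rows and replicates of each group in columns, red for higher and blue for lower. The columns of Day 16 replicate 2 and RPMI_glcM/B27 replicate 3 are blue for all 10 genes, while APOA2 in HPLM/B27 shows the widest contrast.

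Across the 16 libraries, the 36 pairs among the 9 genes other than ALB had correlations of log2(TPM + 1) between 0.78 and 0.98, with a median of 0.92. ALB correlated with them at -0.41 to 0.10. After each group's mean was taken off, ALB correlated with the others at 0.22 to 0.96, with a median of 0.71, and the 36 other pairs at -0.28 to 0.93, with a median of 0.55. The points share libraries, and the first set of values also the group differences, so they are given as a description.

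The genes whose pattern over the 16 libraries was most like each member were sought among 15423 genes whose mean reached 10 reads. For AFP they were ITIH2 (r = 0.98), a carrier of hyaluronan in plasma, APOB and FGB. For APOB they were A1CF (r = 0.98), the cofactor of apolipoprotein B mRNA editing, AFP and ITIH2. FGG was most like APOB, HNF4A (r = 0.97) and MBNL3, FGB like AFP, APOB and ITIH2, and FGA like ITIH2, TF, the iron carrier transferrin, and AFP. APOA1 was nearest to FGG, MGST1 and ITIH2, and APOA2 to TF and AFP. SERPINA1 was nearest to SERPINA5, SERPINA1_1 and AHSG, which encodes fetuin-A, and TTR to AQP4, GPC3 and MARVELD1. For ALB the closest were CYLC2 (r = 0.87), SHOX2 and CHRNA3, none of them in the hepatic lists.

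Of 43 further plasma protein genes, 21 passed the filter. Many calls of the gene lists against Day 16 in RPMI/B27 depended on the processing: 24 of 35 were lost under at least 1 other setting, among them those of ITIH2, AHSG, A2M, MTTP, ONECUT1, PROX1, GC and FABP1, against 9 of 43 in RPMI_glcM/B27 and 8 of 45 in HPLM/B27. From Day 16 to Day 30, 2 rose and 8 fell in RPMI/B27, 12 fell in RPMI_glcM/B27, and 2 rose and 12 fell in HPLM/B27. ITIH2 went from 22.1 TPM to 11.6, 5.07 and 5.03 TPM in the order standard RPMI/B27, RPMI_glcM/B27, HPLM/B27 (log2 changes -0.90, -1.93 and -1.96, adjusted p = 0.0109, 1.93e-05 and 1.81e-05, limma). AHSG went from 11.3 TPM to 4.05, 1.62 and 1.02 TPM (-1.35, -2.25 and -2.64, adjusted p = 0.00908, 0.000144 and 3.68e-05). FN1, fibronectin, which many cells beside hepatocytes make, went from 399 TPM to 110, 70.4 and 104 TPM, and A2M, a protease inhibitor, from 186 TPM to 120, 68.9 and 72.5 TPM. AMBP, C3, TF and VTN passed the test in RPMI_glcM/B27 and HPLM/B27 (log2 changes of -1.10 to -1.81), and in RPMI/B27 were at -0.38 to -0.63 with adjusted p-values of 0.0582 to 0.453. C5, SERPINF1, SERPING1 and TFPI fell in all 3 media. In RPMI/B27 the calls of C5, SERPINF1 and TFPI held in 5 of 7 other settings and that of SERPING1 in 6. The call of SERPINF1 in HPLM/B27 held in 2 of 7. After median-of-ratios rescaling, 3 genes of the list rose and 6 fell in RPMI/B27, 1 and 12 in RPMI_glcM/B27, and 2 and 11 in HPLM/B27.

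A pair of genes of this list, GC and CP, rose with ALB in RPMI/B27. GC, the vitamin D carrier and a member of the albumin gene family, went from 1.55 TPM to 3.75 TPM (log2 change 0.85, adjusted p = 0.0292, limma) and in HPLM/B27 to 3.68 TPM (0.88, adjusted p = 0.0199), while in RPMI_glcM/B27 it was at 2.40 TPM (0.39, adjusted p = 0.306). CP, the copper carrier ceruloplasmin, rose from 2.20 TPM to 4.79 TPM in RPMI/B27 (0.83, adjusted p = 0.0105) and was lower in both other media than there (-0.97 and -0.98, adjusted p = 0.0185 and 0.0146). The second gene that rose in HPLM/B27 was PROS1, an anticoagulant cofactor, from 54.5 TPM to 90.2 TPM (0.74, adjusted p = 0.00908). Against RPMI/B27, A2M, CP, ITIH2, TF and TFPI were lower in RPMI_glcM/B27, and A2M, AHSG, C3, CP, ITIH2 and TF in HPLM/B27.

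Of 28 further genes of apolipoproteins and lipoprotein assembly, 14 were tested. MTTP, which loads lipid onto apolipoprotein B, went from 2.70 TPM to 1.48, 0.372 and 0.476 TPM (log2 changes -0.62, -1.44 and -1.33, adjusted p = 0.0487, 0.000204 and 0.000412, limma). APOE, which many tissues make, fell from 124 TPM to 29.9, 39.4 and 62.2 TPM, and was higher in HPLM/B27 than in RPMI/B27 (1.04, adjusted p = 0.000134), the opposite direction to APOA1, APOA2 and APOB. In total 5, 5 and 6 genes fell from Day 16 in the 3 media, among them APOE, MTTP, P4HB and PLTP in each, with APOO in RPMI/B27, APOC1 in RPMI_glcM/B27, and LRP1 in HPLM/B27. SCARB1, a receptor of high density lipoprotein, rose in RPMI_glcM/B27 (0.78, adjusted p = 0.0332). APOC3 stood at 1.41, 3.85, 1.06 and 0.641 TPM in the 4 groups, with a log2 change of 1.09 in RPMI/B27 that did not pass the test (adjusted p = 0.0846).

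Of 18 transcription factors of the liver, PROX1, ZHX2, CEBPB and ONECUT1 reached a mean of 1 TPM over all libraries. PROX1 stood at 50.4 TPM on Day 16 and 35.6 to 42.9 TPM on Day 30, and ZHX2 at 21.1 TPM and 14.1 to 16.3 TPM. ONECUT1 fell from 2.18 TPM to 0.867, 0.570 and 0.577 TPM (log2 changes -0.78, -0.9998 and -0.99, adjusted p = 0.0217, 0.00416 and 0.00424, limma). PROX1 fell in RPMI/B27 and ZHX2 in HPLM/B27, where 2, 1 and 2 of the 4 fell in the 3 media and 0 rose. When the filter was dropped and all 31047 genes above 0 were tested, 6, 10 and 11 of the 18 fell, where 8.48%, 10.2% and 11.9% of all those genes did. HNF4A went from 2.19 TPM to 0.529, 0.211 and 0.135 TPM (adjusted p = 0.000297, 1.75e-05 and 1.09e-05). FOXA1 went from 2.43 TPM to 0.352, 0.266 and 0.579 TPM, and CEBPA from 2.39 TPM to 0.245, 0.447 and 0.353 TPM, and both passed the test in all 3 media.

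**Figure D5:**
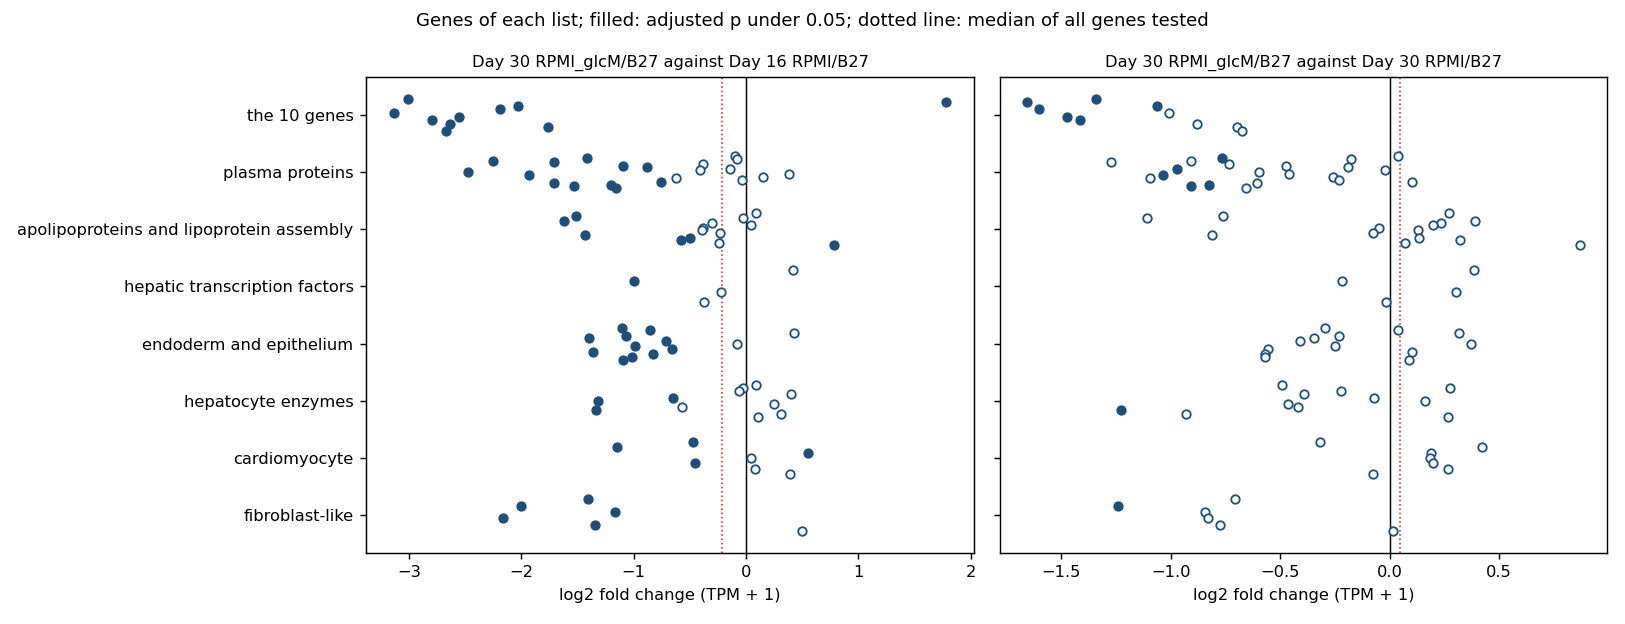
Log2 fold change of TPM + 1 of each tested gene by list, for RPMI_glcM/B27 against Day 16 on the left and against Day 30 RPMI/B27 on the right, filled where the adjusted p was under 0.05. On the left 9 of the 10 genes lie beyond -1.7 and ALB alone at 1.78, and on the right all 10 lie below 0.

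The label of these genes was checked against markers of endoderm and hepatocytes. SOX17, a definitive endoderm factor, had a mean of 0.114 TPM on Day 16, GSC was at 0, and FOXA2 had 0.494 TPM. Of 13 tested genes of endoderm and epithelium, 8, 11 and 10 fell from Day 16 in the 3 media and 0 rose. EPCAM, an adhesion protein of epithelium, fell from 11.7 TPM to 5.10, 3.81 and 4.31 TPM, CDH1 from 2.49 TPM to 0.998, 0.624 and 0.637 TPM, and LRP2, an endocytic receptor of yolk sac and kidney epithelium, from 7.07 TPM to 1.95, 2.18 and 1.86 TPM, each past the test in all 3 media. After median-of-ratios rescaling 5, 9 and 7 genes of the list fell and 0 rose. The most abundant of the list were KRT8, KRT18 and KRT19, at 802, 234 and 117 TPM on Day 16, which are not particular to endoderm.

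Of 33 enzymes, receptors and transporters of hepatocytes, 32 were in the file and 11 passed the filter. CPS1, an enzyme of the urea cycle, stood at 20.7 TPM on Day 16 and 11.1 to 13.8 TPM on Day 30, and ASS1, another, at 5.65 to 7.29 TPM in the 4 groups. CYP1A2, G6PC and TDO2 were at 0 in every group, CYP3A4 was at 1.298 TPM on Day 16 and CYP3A7, its fetal relative, at 1.38 TPM. FABP1, the liver fatty acid-binding protein, was the 1 gene that rose, from 1.39 TPM to 4.16 TPM in RPMI/B27 (log2 change 1.24, adjusted p = 0.0486, limma; called in 2 of 6 other settings). After median-of-ratios rescaling, 3 genes of the list rose and 1 fell in RPMI/B27, 0 and 3 in RPMI_glcM/B27, and 1 and 3 in HPLM/B27. CYP27A1, of bile acid synthesis, fell in all 3 media (-1.48, -1.32 and -1.79), CPS1 and DLK1, a hepatoblast marker that other fetal tissues also make, fell in RPMI_glcM/B27 and HPLM/B27, and DLK1 was lower in both than in RPMI/B27 (-1.23 and -1.24, adjusted p = 0.0348 and 0.0325).

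RNA levels of markers of other cell types changed as well. Of 6 fibroblast-like markers tested (of 7 listed), 3, 5 and 4 fell from Day 16 in the 3 media and 0 rose. After median-of-ratios rescaling 2, 5 and 4 fell and 1, 1 and 0 rose. The summed level of the 7 listed was 239 to 435 TPM on Day 16, 151 to 298 TPM in RPMI/B27, 118 to 162 TPM in RPMI_glcM/B27 and 122 to 186 TPM in HPLM/B27. KDR was the 1 of 6 endothelial-like markers tested and fell in all 3 media, with PECAM1, VWF and CDH5 under 1 TPM. With all genes above 0 tested, PECAM1 rose in RPMI/B27 by 0.548 on the log2 scale (adjusted p = 0.0410, limma), where 1.06% of all those genes did. The sum of the 6 was 42.4 to 54.5 TPM on Day 16 and 13.4 to 31.1 TPM on Day 30. TBX18, the 1 of 5 epicardial-like markers tested, rose in RPMI/B27 and fell in HPLM/B27, with WT1, TCF21, ALDH1A2 and UPK3B at means of up to 1.34 TPM. The 7 cardiomyocyte markers summed to 11435 to 12821 TPM on Day 16 and 10739 to 14725 TPM on Day 30, and among them MYH6 and NKX2-5 fell and MYH7 rose in all 3 media. The call of NKX2-5 held in 5 of 7 other settings in RPMI/B27 and 3 of 7 in RPMI_glcM/B27. ACTN2 fell in RPMI_glcM/B27 and HPLM/B27, calls that held in 5 and 3 of 7 settings. After median-of-ratios rescaling, 1 marker rose and 2 fell in RPMI/B27, 2 and 1 in RPMI_glcM/B27, and 1 and 2 in HPLM/B27. The part of a changed share of cells in the levels of the 10 genes was not tested.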

How the data were processed

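Total RNA of 16 libraries was made into stranded libraries with a Takara SMARTer kit; per the labels the authors used STAR 2.5.3a, featureCounts 2.0.3 and R 4.1.3 with hg38. The authors deposited TPM per gene symbol; the annotation, gene lengths and the tool behind the TPM are not given in the sources used here. The submitters tested counts with DESeq2, which the TPM do not hold.

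The 16122 genes whose mean reached 1 TPM entered a linear model of log2(TPM + 1) over the 4 groups in limma 3.58.1 under R 4.3.3, moderated with a trend, from which 6 comparisons were drawn, with Benjamini-Hochberg adjustment over all genes within each and a threshold of 0.05. Folds are ratios of mean TPM, and a log2 change on TPM + 1 understates that of low genes. Whole reads were recovered from ratios of TPM between libraries for all 31047 genes above 0; lengths matched RefSeq within 0.5 base for 421 of 426 miRNA genes. P-values cover the spread between wells of 1 differentiation. No libraries were identical (0 pairs). Recovery and limma were tested on simulated data.

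Alternatives were a pseudocount of 0.1, all genes above 0, median-of-ratios rescaling, limma-voom on recovered reads (mean of at least 10), a replicate block, RNR1 as a covariate, and each library left out; leaving out both libraries richest in RNR1 was chosen after seeing the data. The members and gene lists were chosen with earlier results of these data known. Named genes are the 10 members, list genes past the threshold in a comparison or among the highest of a list, the 3 most correlated genes of each member, and RNR1, with a few genes not reported here; the list genes at or near 0 were named as markers after their values were seen. Sequences and coordinates are from RefSeq, GRCh38.p14. Python 3.11.15, numpy 2.4.6, pandas 2.3.3 and matplotlib 3.10.9 were used.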

Additional observations from a re-analysis of the deposited data

Results flagged for a closer look

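In each of 40 sets of 4 libraries, 10 genes in 4 groups, the highest or lowest library was compared with the spread of the others by Dixon's ratio of its gap to the range. Chance flags about 1 in 20 such sets, and 5 of 40 stood out.

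TTR on Day 30 in RPMI/B27 had its lowest library, replicate 2, at 1.79 TPM, with the next at 3.55 TPM. TTR in RPMI_glcM/B27 had its highest library, replicate 4, at 3.23 TPM, with the next at 1.35 TPM. Both rest on 25 reads or fewer per library. SERPINA1 on Day 16 had its highest library, replicate 1, at 23.7 TPM, with the next at 16.2 TPM, and the fall of SERPINA1 in RPMI/B27 lost its call without that library. FGA in HPLM/B27 had its highest library, replicate 2, at 1.46 TPM, with the next at 0.744 TPM, and FGG in HPLM/B27 its lowest, replicate 4, at 0.720 TPM, with the next at 1.33 TPM, on 6 to 26 reads.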

How the results depend on the processing

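Of the fold changes of the 10 genes under alternatives other than leaving out 1 library, 378 values kept their side of the threshold, 19 newly passed it and 18 no longer did; with 1 library left out these were 404, 4 and 56. No fold change turned direction in the comparisons with Day 16 or with Day 30 RPMI/B27. Between HPLM/B27 and RPMI_glcM/B27, where no gene passed the test, the sign turned in 5 and 16 values: AFP was at 0.064 with limma-voom and 0.064 after median-of-ratios rescaling, and FGB at 0.059 and 0.035 in these and 0.0057 with a pseudocount of 0.1. With 1 library left out, that difference was -0.24 to 0.29 for AFP, -0.18 to 0.24 for SERPINA1, -0.064 to 0.17 for APOA1, -0.44 to 0.37 for APOA2, -0.30 to 0.0058 for FGA and -0.26 to 0.17 for FGB.

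With all 31047 genes above 0 tested, 3 genes were lower in RPMI_glcM/B27 than in RPMI/B27 in place of 6, and 3 in HPLM/B27 in place of 7. Of all those genes 0.309% and 0.338% were called lower, in place of 0.837% and 0.893%. P-values are then adjusted over more genes. With 1 library left out, the number of the 10 genes called was 8 to 9 for RPMI/B27 against Day 16, 10 for RPMI_glcM/B27, 9 to 10 for HPLM/B27, 1 to 7 for RPMI_glcM/B27 against RPMI/B27, 3 to 7 for HPLM/B27 against RPMI/B27 and 0 for HPLM/B27 against RPMI_glcM/B27. The labels do not say whether replicate numbers pair the wells, and the main fit did not pair them. Deviations of same-numbered libraries correlated at -0.15 to 0.42, and no comparison had every pair over 0.1. At most 3 of 4 libraries matched their own number best. Replicate 4 did so in the 3 media against Day 16 (0.23, 0.22 and 0.15) and between RPMI_glcM/B27 and RPMI/B27 (0.27). Its other values were 0.083 and 0.026. Replicate 2 also did so in the 3 media against Day 16 (0.42, 0.10 and 0.20) and between HPLM/B27 and RPMI/B27 (0.26). Its remaining values were 0.077 and -0.00044. Replicate 1 did so for RPMI_glcM/B27 against Day 16 (0.10) and against RPMI/B27 (0.15). A batch shared by number was not tested. With the replicate block, 9, 10, 9, 6, 7 and 0 genes were called in the order of the 6 comparisons above, and over all genes 4734, 4487, 5520, 721, 732 and 48 in place of 3203, 3400, 4088, 354, 388 and 11. Between HPLM/B27 and RPMI_glcM/B27, rescaling gave 161 genes higher and 101 lower in place of 8 and 3. Of 141 calls of list genes, 93 held in each setting with no single library left out, 48 were lost in at least 1, and 1 changed direction (ACTN2 in HPLM/B27 against Day 16). Counts under 10 reads in a library, as for TTR, FGA, FGG and APOA2 in RPMI_glcM/B27, limit the precision of those levels.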
